A study of Schizosaccharomyces pombe with 24 samples.

Results

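The genes described here are the subtelomeric clusters of chromosome II in fission yeast (Schizosaccharomyces pombe), the gene groups that lie nearest the ends of that chromosome. They were taken by identifier: every gene in the count table whose systematic name begins with SPBC1348 (other than SPBC1348.14c), SPBPB21E7, SPBPB10D8, SPBCPT2R1 or SPBPB2B2. The rule finds 56 of the 6988 genes in the table. By the RefSeq annotation, 30 of them lie on the left arm (13 SPBC1348, 10 SPBPB21E7 and 7 SPBPB10D8 genes) and 26 on the right arm (9 SPBCPT2R1 and 17 SPBPB2B2 genes). The annotation lists 48 as protein-coding and 8 as pseudogenes, and 14 have a gene symbol.

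PolyA+ RNA was sequenced from haploid cells taken in log phase from cultures at 30 °C in YES, a rich medium. Each of the 8 groups has 3 biological replicates, 24 libraries in all. The 7 mutants each carry a single amino acid change in a subunit of the machinery that cleaves pre-mRNA at its 3′ end and adds the poly(A) tail. They are cft1-L249Q (h+), msi2-G252E, pfs2-E104A, pfs2-V180F, pla1-Y86L, pta1-T524M and ysh1-L74F (all h-), and the control is a WT h- strain. Besides its own mutation, each of ysh1-L74F, pta1-T524M, msi2-G252E and the 2 pfs2 strains carries asp1-WT::kanMX, pla1-Y86L is itself marked with kanMX, and WT carries neither marker. An effect of the marker cannot be told apart from that of these mutations, nor can an effect of the h+ mating type from that of cft1-L249Q.

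Chromatin near fission yeast telomeres is normally silenced. The histone methyltransferase Clr4 marks histone H3 there, HP1 proteins such as Swi6 bind the mark, and the RNAi machinery and telomere-binding proteins such as Taz1 help to recruit these factors. Genes in such regions are often induced under starvation or other stress, and many belong to families with near-identical copies at other chromosome ends. The gene nearest the right end, tlh2, encodes a RecQ-type DNA helicase and is a common reporter of loss of subtelomeric silencing.

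The libraries held 19.4 to 29.3 M counts, and the WT libraries 25.3 to 28.1 M. Levels below are in CPM, a gene's read count relative to the size of its library, after scaling of the library sizes. They are not divided by gene length, so values are compared between libraries and not between genes. The mating types were checked with mfm2, which encodes the M-factor pheromone of h- cells. It had 2.18, 1.65 and 1.74 CPM in the h+ cft1-L249Q libraries, against 46.5, 50.8 and 36.2 CPM in WT. By the test given below, the h- genes mam2 (log2 fold change -1.35) and mam1 (-0.71) were also lower in cft1-L249Q. There mfm1 was not called and mfm3 was higher (0.61). Of the h+ genes, map1 was lower there (-0.56), and map2 and map3 were not called. The markers other than mfm2 thus did not all follow the labelled mating type.

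In WT cells most of these genes gave few reads. Over the 3 WT libraries, 27 of the 56 had fewer than 10 reads in all. Reads were concentrated in SPBPB21E7, the middle cluster of the left arm, and SPBPB2B2, the inner cluster of the right arm. SPBPB21E7 genes had 5921, 8194 and 5972 reads in the WT libraries and SPBPB2B2 genes 6800, 7093 and 7459. The SPBPB10D8 genes, innermost on the left arm, had 625, 783 and 867 reads in the WT libraries. The outermost clusters had 261, 272 and 299 reads (SPBC1348) and 44, 50 and 35 reads (SPBCPT2R1). The 5 genes with the most WT reads held 73.9% of the reads of the 56. They were aes1 (annotated as a phenazine biosynthesis family protein), pan5 (2-dehydropantoate 2-reductase, an enzyme of pantothenate synthesis), the pseudogene SPBPB21E7.08, gal1 (galactokinase) and nrg1 (an amino-acid permease).

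**Figure D1:**
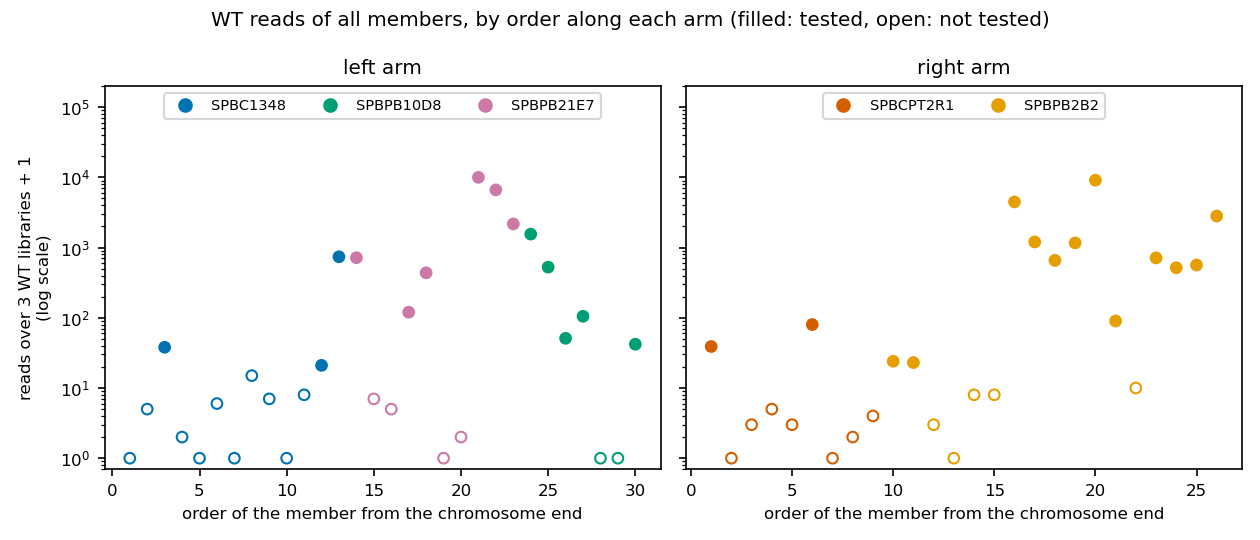
Reads of each of the 56 genes summed over the 3 WT libraries, plus 1, on a log scale, against the gene's order from the chromosome end in each arm (1 is nearest the end). Filled points are the 28 genes tested and open points the 28 not tested, and colours give the cluster. The outer genes of both arms have few reads, and aes1 and pan5 have the most, 10007 and 9107.

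Only genes with enough reads were tested for change. Of the 56 members 28 passed the filter on low counts, 50% against 89.97% of all genes. Among protein-coding genes, 25 of the 48 members passed, 52.1% against 98.0% of the 5107 protein-coding genes in the table. The share tested was 3 of 13 for SPBC1348, 6 of 10 for SPBPB21E7, 5 of 7 for SPBPB10D8, 2 of 9 for SPBCPT2R1 and 12 of 17 for SPBPB2B2. The passing gene with the fewest reads was SPBC1348.11, with 149 over the 24 libraries. The failing gene with the most was SPBC1348.07, with 115.

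Of the 28 genes not tested, 22 had reads, at most 13 in any library. The other 6 had no read in any of the 24 libraries: SPBC1348.15, SPBC1348.09 (a dehydrogenase), SPBPB21E7.05, SPBPB10D8.05c (a transporter), the pseudogene SPBCPT2R1.10 and SPBPB2B2.16c (a transporter of the MFS family). A count of 0 allows a level of up to 0.1003 to 0.159 CPM, depending on the library (3 counts, counting error only). This limit does not hold for a gene whose reads were left uncounted because they also match a near-identical copy. How such reads were handled is not given in the sources used here. Without the filter, 2 of these 28 were also called higher in pla1-Y86L. SPBPB21E7.02c, of the phosphoglycerate mutase and 6-phosphofructo-2-kinase family, had 13, 5 and 7 reads in pla1-Y86L, against 2, 2 and 2 in WT. SPBCPT2R1.01c, an uncharacterized gene, had 3, 3 and 10 reads in pla1-Y86L, against 1, 1 and 1 in WT. Without it the transmembrane protein gene ftm7 was called higher in msi2-G252E, with 4, 2 and 7 reads, against 0, 0 and 2 in WT, and SPBPB2B2.15, a Vel1p domain protein gene, was called lower in pla1-Y86L, with 0 reads in each library, against 0, 1 and 6 in WT. These calls rest on few reads and are not counted below. A member that passed the filter through 1 group alone had to differ there, so the counts below describe the 28 tested genes and not the whole clusters.

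Together the 56 genes took a small share of each library, and that share differed between strains. It was 0.0831 ± 0.0053% of counts in cft1-L249Q, 0.0828 ± 0.0072% in pfs2-E104A, 0.0813 ± 0.0080% in pfs2-V180F and 0.0654 ± 0.0030% in msi2-G252E (SD, n = 3 each). It was 0.0449 ± 0.0021% in pla1-Y86L, 0.0636 ± 0.0026% in pta1-T524M and 0.0747 ± 0.0027% in ysh1-L74F, against 0.0561 ± 0.0054% in WT (SD, n = 3 each). All 3 libraries of cft1-L249Q, pfs2-E104A, pfs2-V180F and ysh1-L74F lay above the WT range of 0.0521 to 0.0622%, and those of pla1-Y86L, at 0.0433 to 0.0473%, lay below it. The libraries of pta1-T524M overlapped WT, and the lowest of msi2-G252E lay at 0.0623%, next to the highest of WT. These shares depend on aes1, pan5 and SPBPB21E7.08, which held 57.6% of the members' WT reads. Without these genes the share was 0.0258 to 0.0273% in pla1-Y86L, above the WT range of 0.0229 to 0.0244%. It was then 0.0370 to 0.0388% in pta1-T524M, also above WT, and 0.0244 to 0.0269% in pfs2-E104A, overlapping WT. The shares are a description, with no test. In these bulk cultures a change in the number of cells that express a gene and a change in its RNA per cell cannot be told apart.

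The clusters did not move as 1 block. The SPBPB2B2 share was 0.0205 ± 0.00023% in pla1-Y86L, against 0.0268 ± 0.00021% in WT, and it was higher than in WT in every library of the other 6 mutants. The SPBPB10D8 share was 0.00809 ± 0.00031% in cft1-L249Q and 0.00807 ± 0.00057% in pta1-T524M, against 0.00284 ± 0.00033% in WT. In pta1-T524M the SPBPB21E7 share was 0.0180 ± 0.0023%, against 0.0253 ± 0.0052% in WT, so that the share of 1 left-arm cluster was higher and its neighbour's lower. The genes of SPBPB21E7 did not all go down there. By the test given below 2 of its 6 tested genes were higher and 2 lower, among the latter aes1, the member with the most WT reads. The SPBCPT2R1 share, almost all of it tlh2 where it was high, was 0.00129 ± 0.00042% in msi2-G252E and 0.000839 ± 0.00034% in cft1-L249Q, against 0.000163 ± 0.000034% in WT (SD, n = 3 for each share).

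**Figure D2:**
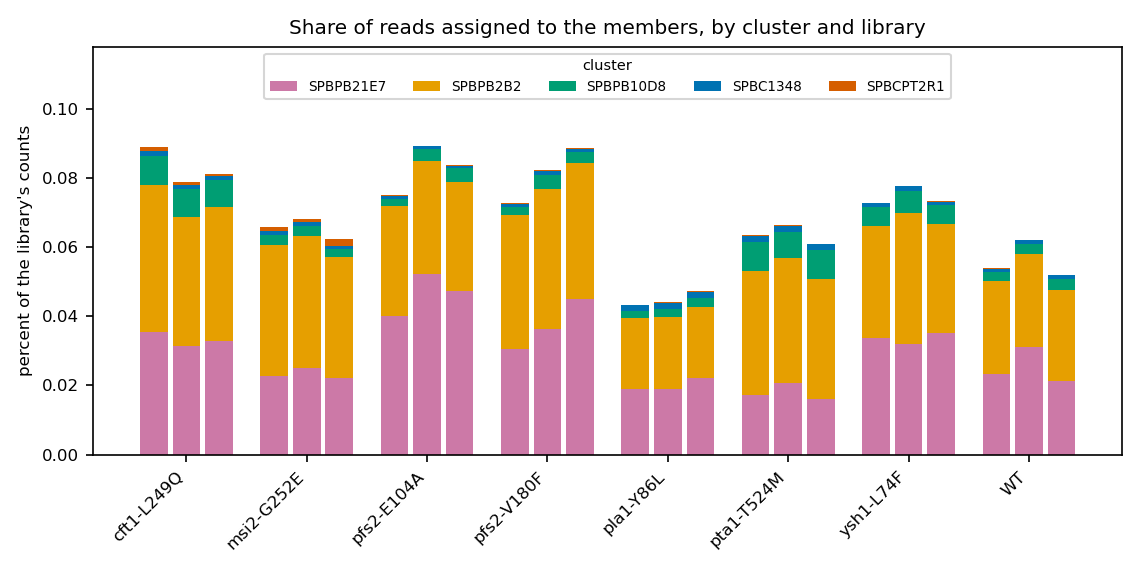
Percent of each library's counts assigned to the 56 genes, as 1 bar per library stacked by cluster, with the 3 libraries of a group side by side. The bars of pla1-Y86L, at 0.0433 to 0.0473%, are the lowest, and the SPBPB10D8 segment is widest in cft1-L249Q and pta1-T524M.

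Each mutant was then compared with WT gene by gene. A gene is called, and said to rise or fall, where its adjusted p is under 0.05 in edgeR's quasi-likelihood test with Benjamini-Hochberg adjustment over the 6287 genes tested. All 7 comparisons share the same 3 WT libraries, so they are not independent of each other.

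In cft1-L249Q 17 of the 28 genes rose and 0 fell, where 22.3% of all genes tested rose and 21% fell. Of these 17, 7 rose at least 2-fold (1.67% of all genes did). The median log2 fold change of the 28 was 0.40, against 0.00 over all genes. The number that fell was also 0 at an unadjusted p under 0.05 and 0 by DESeq2.

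In pla1-Y86L the direction was the other one: 13 of the 28 fell and 4 rose, where 32.4% of all genes fell and 32.2% rose. At least 2-fold, 6 fell and 2 rose (2.04% and 4.85% of all genes). The median log2 fold change was -0.37.

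In pta1-T524M 13 rose and 2 fell, where 18.7% and 19.8% of all genes did, with 5 rising and 1 falling at least 2-fold (1.22% and 0.954%). In ysh1-L74F 10 rose and 0 fell, where 7.57% and 6.84% did, with 2 rising at least 2-fold (0.27%). In ysh1-L74F too the number that fell was 0 at an unadjusted p under 0.05 and 0 by DESeq2. The median log2 fold change was 0.17 in each of these mutants. Without WT replicate 1 the number that rose in ysh1-L74F was 6, and the number that fell in pta1-T524M was 1 without WT replicate 1 or 3 or pta1-T524M replicate 2 or 3.

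In the other 3 mutants more members rose than fell too. In msi2-G252E 9 rose and 4 fell, where 29.3% and 29.5% of all genes did, with 3 rising and 1 falling at least 2-fold (4.39% and 1.62%). The number that rose in msi2-G252E was thus near the share over all genes. Called in either direction there were 46.4% of the members, against 58.8% of all genes. In pfs2-E104A 9 rose and 3 fell, where 18.1% and 16.1% did, with 2 rising at least 2-fold (0.732%). In pfs2-V180F 11 rose and 2 fell, where 24.1% and 24% did, with 3 rising and 1 falling at least 2-fold (2.47% and 0.891%). Their median log2 fold changes were 0.08 in msi2-G252E, 0.17 in pfs2-E104A and 0.27 in pfs2-V180F. The number that fell was 1 in pfs2-E104A without WT replicate 3, and 1 in pfs2-V180F without WT replicate 2 or pfs2-V180F replicate 1.

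Single genes went different ways in different mutants. Of the 28, 15 were called in both directions, as were 28.6% of all genes. A further 8 were called only as higher (33.7% of all genes) and 2 only as lower (31.2%). The uncalled 3 were SPBCPT2R1.04c, SPBPB2B2.18 and SPBPB2B2.19c (6.47% of all genes were uncalled). In 14 members at least 1 mutant was called at 2-fold or more, as it was in 13.7% of all genes.

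**Figure D3:**
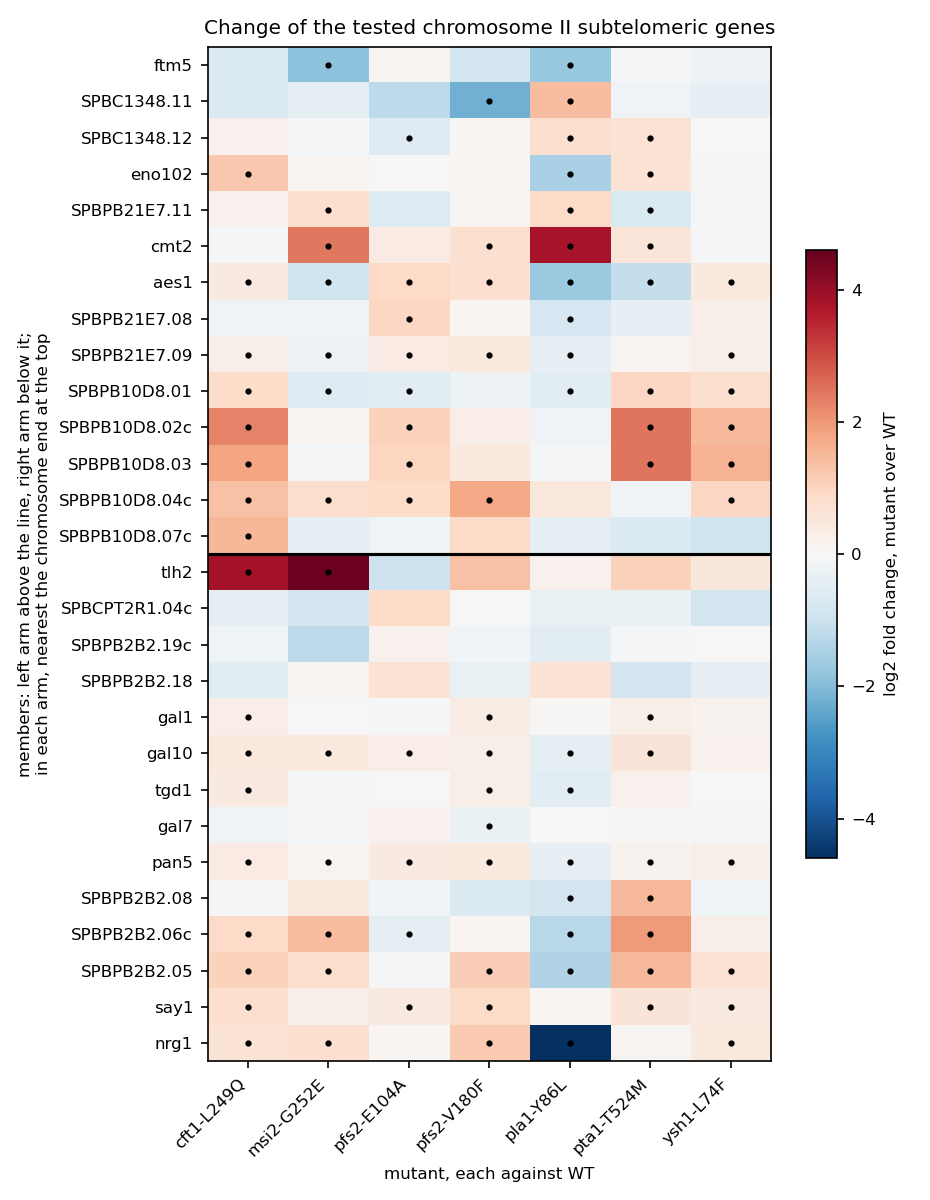
Log2 fold change of the 28 tested genes (rows, left arm above the line and right arm below, nearest the chromosome end at the top of each) in the 7 mutants against WT (columns). Red is higher and blue lower in the mutant, and a dot marks an adjusted p under 0.05. The darkest cells are tlh2 in msi2-G252E (4.50) and nrg1 in pla1-Y86L (-4.58), and the pla1-Y86L column holds most of the blue.

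The gene nearest the right end, tlh2, rose in cft1-L249Q and msi2-G252E. It had 10.4, 6.09 and 5.04 CPM in cft1-L249Q and 10.3, 8.33 and 15.6 CPM in msi2-G252E, against 0.583, 0.119 and 0.787 CPM in WT. All libraries of both mutants lay above all WT libraries. The log2 fold change was 3.84 ± 0.55 (SE, adjusted p = 7.06e-06) in cft1-L249Q and 4.50 ± 0.52 (adjusted p = 1.3e-07) in msi2-G252E. The WT libraries held only 14, 3 and 21 tlh2 reads, so the size of these folds is uncertain. With 1 replicate left out in turn, the log2 fold change ran from 3.38 to 4.37 in cft1-L249Q. In msi2-G252E it ran from 4.05 to 5.04, and in both mutants it was highest without WT replicate 3.

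The other mutants overlapped WT in tlh2. The highest of their libraries was 2.54 CPM, in pfs2-V180F replicate 2, while replicate 1 of that mutant had no tlh2 read. The log2 fold change in pfs2-V180F was 1.36 ± 0.73 (adjusted p = 0.126), without replicate 1 it was 1.86 (adjusted p = 0.0143), and without replicate 2 it was 0.16. In the remaining mutants it ran from -0.97 ± 1.09 in pfs2-E104A to 1.06 ± 0.75 in pta1-T524M, with no call. The near-identical copy at the end of chromosome I, tlh1, had 37, 17 and 19 reads in cft1-L249Q and 38, 29 and 75 reads in msi2-G252E, against 1, 1 and 0 reads in WT. How the counting split reads between these copies is not given in the sources used here. The level of each is uncertain for that reason.

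The rest of the right end stayed low. Of the 9 SPBCPT2R1 genes only tlh2 and SPBCPT2R1.04c, an uncharacterized gene, were tested. SPBCPT2R1.04c ran from 0.073 to 2.02 CPM over the mutant libraries, against 0.375 to 1.71 CPM in WT. Its 3 pfs2-E104A libraries, at 2.02, 1.75 and 1.89 CPM, lay above WT, with a log2 fold change of 0.85 ± 0.55 (adjusted p = 0.245). Further from the end SPBPB2B2.18 and SPBPB2B2.19c, which overlap on opposite strands, stayed under 1 CPM in every library.

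Inside these lies a block of sugar genes. Gal1, Gal7 and Gal10 are the enzymes that convert galactose to a glucose phosphate, and tgd1, which overlaps gal10 on the opposite strand, encodes a nucleotide-sugar 4,6-dehydratase. Their changes were small, and gal1, gal7 and gal10 did not move together.

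Galactokinase gal1 rose in 3 mutants. It had 73.0, 69.7 and 75.8 CPM in cft1-L249Q, 66.8, 78.1 and 76.3 CPM in pfs2-V180F and 70.7, 71.2 and 73.7 CPM in pta1-T524M, against 59.5, 61.6 and 55.9 CPM in WT. The log2 fold changes were 0.30 ± 0.05, 0.33 ± 0.05 and 0.29 ± 0.05 in that order, and all libraries of the 3 mutants lay above WT. In the other 4 mutants it ran from 54.9 to 68.6 CPM and was not called.

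The epimerase gene gal10 fell in pla1-Y86L, to 12.2, 10.96 and 12.7 CPM, against 15.7, 18.3 and 13.6 CPM in WT (log2 fold change -0.40 ± 0.10). It rose in pta1-T524M (0.59), cft1-L249Q (0.48), msi2-G252E (0.45), pfs2-E104A (0.31) and pfs2-V180F (0.26). Only the cft1-L249Q, msi2-G252E and pta1-T524M libraries all lay above WT, and the call in pfs2-E104A did not hold without WT replicate 1 or 3 or pfs2-E104A replicate 2 (adjusted p = 0.0601 to 0.183). The call in pfs2-V180F did not hold without WT replicate 1 or 3 or pfs2-V180F replicate 2 or 3 (adjusted p = 0.0685 to 0.196). The uridylyltransferase gene gal7 was called once, in pfs2-V180F, where it had 11.5, 12.9 and 12.9 CPM, against 14.1, 17.9 and 14.1 CPM in WT (-0.30 ± 0.10). That call did not hold without WT replicate 2 (adjusted p = 0.182) or pfs2-V180F replicate 1 (adjusted p = 0.0835). The dehydratase gene tgd1 rose in cft1-L249Q (0.41) and pfs2-V180F (0.27) and fell in pla1-Y86L (-0.51), in each case with no overlap with WT.

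The neighbouring pan5 was called in all 7 mutants, by small amounts. It had 90.8, 93.4 and 95.9 CPM in pla1-Y86L, against 125, 120 and 116 CPM in WT. In the other 6 mutants it lay at 129 to 166 CPM, above WT in each library. The log2 fold change was -0.36 ± 0.04 in pla1-Y86L and from 0.14 ± 0.04 in msi2-G252E to 0.44 ± 0.04 in pfs2-V180F in the others. Its replicates were among the tightest of the 28.

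Nearer the centromere, SPBPB2B2.06c (a phosphoprotein phosphatase) and SPBPB2B2.05 (a class I glutamine amidotransferase family protein) fell in pla1-Y86L and rose in other mutants. SPBPB2B2.06c had 39.7, 37.0 and 33.0 CPM in pta1-T524M, 25.7, 27.0 and 23.5 CPM in msi2-G252E and 3.51, 4.43 and 3.63 CPM in pla1-Y86L, against 10.1, 8.08 and 9.97 CPM in WT. None of these overlapped WT. Its log2 fold changes were 1.96 ± 0.13 in pta1-T524M, 1.44 ± 0.13 in msi2-G252E and -1.29 ± 0.17 in pla1-Y86L. It also rose in cft1-L249Q (0.89 ± 0.14) and fell in pfs2-E104A (-0.44 ± 0.16), the last call being lost without WT replicate 1 or 3 or pfs2-E104A replicate 2 or 3 (adjusted p = 0.0864 to 0.109).

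SPBPB2B2.05 had 20.9, 18.6 and 17.2 CPM in pta1-T524M, 15.5, 15.5 and 13.8 CPM in pfs2-V180F and 14.0, 13.6 and 15.1 CPM in cft1-L249Q. It had 2.41, 2.54 and 2.87 CPM in pla1-Y86L, against 6.04, 5.61 and 8.58 CPM in WT. The log2 fold changes were 1.48 ± 0.14, 1.14 ± 0.14, 1.07 ± 0.14 and -1.37 ± 0.18 in the order given, with no overlap with WT. It also rose in msi2-G252E (0.79) and ysh1-L74F (0.66). In pfs2-E104A it had 5.66 to 7.18 CPM and was not called.

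Their small neighbour SPBPB2B2.08, an uncharacterized gene, rose in pta1-T524M too, with 3.05, 3.67 and 3.13 CPM, against 1.17, 1.31 and 1.05 CPM in WT (log2 fold change 1.47 ± 0.26, adjusted p = 8.78e-05). It fell in pla1-Y86L (-0.84 ± 0.34), where the libraries overlapped WT. That call did not hold without WT replicate 1 or 2 or pla1-Y86L replicate 1 or 2 (adjusted p = 0.0632 to 0.207), and without pla1-Y86L replicate 3 the log2 fold change was -1.42.

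The 2 innermost right-arm genes are say1, a sterol deacetylase, and nrg1, the amino-acid permease. The permease nrg1 showed the largest fall among the 28: it had 1.61, 1.68 and 1.34 CPM in pla1-Y86L, against 35.6, 32.1 and 43.0 CPM in WT. These are 44, 39 and 37 reads, against 854, 808 and 1147 in WT, a log2 fold change of -4.58 ± 0.21 (adjusted p = 2.14e-14), or 24-fold lower. It rose in pfs2-V180F to 90.8, 86.8 and 78.8 CPM (1.21 ± 0.12, adjusted p = 4.83e-08), above WT in each library. It also rose in msi2-G252E (0.75) and cft1-L249Q (0.62), with all libraries above WT, and in ysh1-L74F (0.45), where replicate 1, at 42.1 CPM, overlapped WT. The call in ysh1-L74F did not hold without WT replicate 1 or 2 or ysh1-L74F replicate 2 (adjusted p = 0.0669 to 0.175).

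By contrast with nrg1, say1 did not fall in pla1-Y86L, at 8.63, 7.39 and 7.51 CPM, against 6.79, 7.80 and 7.65 CPM in WT (0.08 ± 0.14, adjusted p = 0.609). It rose in 5 mutants, from 0.41 in pfs2-E104A to 0.86 ± 0.13 in pfs2-V180F. The call in pfs2-E104A did not hold without WT replicate 1 or pfs2-E104A replicate 1 or 2 (adjusted p = 0.0699 to 0.0918), and that in ysh1-L74F (0.43) without any 1 of the WT replicates or ysh1-L74F replicate 2 (adjusted p = 0.0523 to 0.176). Between SPBPB2B2.05 and say1 the annotation lists nam3, a noncoding RNA gene that is not a member. It had 49.7, 47.5 and 50.0 CPM in pfs2-V180F, against 10.4, 11.3 and 10.3 CPM in WT, and rose in all 7 mutants, by a log2 fold change of 0.38 in pta1-T524M to 2.20 in pfs2-V180F. Whether reads of nam3 were counted to its neighbours was not tested.

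On the left arm the largest change was that of cmt2 in pla1-Y86L. This gene encodes a catechol O-methyltransferase. It had 78.4, 70.6 and 88.7 CPM in pla1-Y86L and 30.6, 34.2 and 28.7 CPM in msi2-G252E, against 4.46, 6.64 and 6.07 CPM in WT. The libraries of both mutants lay far above WT, with log2 fold changes of 3.79 ± 0.13 (adjusted p = 2.79e-16, 13.8-fold) and 2.44 ± 0.14 (adjusted p = 8.75e-13, 5.42-fold). Smaller rises were called in pfs2-V180F (0.75 ± 0.16) and pta1-T524M (0.57 ± 0.16). In cft1-L249Q, pfs2-E104A and ysh1-L74F it ran from 4.58 to 9.62 CPM, overlapping WT. Thus cmt2 rose most in pla1-Y86L, the mutant in which most called members fell.

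An antisense noncoding gene over cmt2, SPNCRNA.1304, also rose in those mutants. It had 29, 26 and 38 reads in pla1-Y86L and 23, 21 and 19 reads in msi2-G252E, against 9, 8 and 6 reads in WT, log2 fold changes of 1.95 and 1.39. The strand setting of the counting is not given in the sources used here. Reads of a gene and its antisense partner may therefore not be fully separated. The same holds for SPBPB10D8.01 with SPBPB10D8.02c, gal10 with tgd1, and the antisense noncoding genes over eno102, SPBPB21E7.08, SPBPB10D8.02c and gal1.

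Close to cmt2, eno102 (a second enolase gene, enolase being an enzyme of glycolysis) behaved differently. It had 24.4, 22.5 and 19.9 CPM in cft1-L249Q and 3.62, 3.01 and 3.52 CPM in pla1-Y86L, against 9.79, 9.07 and 9.48 CPM in WT. Both mutants stood clear of WT, with log2 fold changes of 1.24 ± 0.10 and -1.47 ± 0.12. It rose in pta1-T524M to 17.5, 13.5 and 12.5 CPM (0.62 ± 0.10). In the other 4 mutants it stayed at 9.01 to 10.7 CPM.

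The member with the most WT reads, aes1, was called in all 7 mutants and in both directions. It had 36.9, 40.0 and 46.0 CPM in pla1-Y86L, 61.1, 69.3 and 55.02 CPM in pta1-T524M and 67.4, 79.8 and 63.9 CPM in msi2-G252E, against 122, 159 and 115 CPM in WT. All of these lay below WT, with log2 fold changes of -1.69 ± 0.13, -1.10 ± 0.13 and -0.91 ± 0.13. It had 205, 273 and 273 CPM in pfs2-E104A and 193, 225 and 257 CPM in pfs2-V180F, above WT, with log2 fold changes of 0.92 ± 0.12 and 0.77 ± 0.12. Smaller rises in cft1-L249Q (0.41) and ysh1-L74F (0.44) did not hold without WT replicate 3 (adjusted p = 0.0665 and 0.106), and that in ysh1-L74F also without WT replicate 1 or ysh1-L74F replicate 3 (adjusted p = 0.0829 and 0.0673).

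The pseudogene SPBPB21E7.08, beside aes1, rose in pfs2-E104A to 150, 207 and 158 CPM, against 80.2, 117 and 66.1 CPM in WT (0.97 ± 0.20, adjusted p = 0.00081). It fell in pla1-Y86L to 45.04, 48.3 and 62.2 CPM (-0.76 ± 0.21), a call lost without WT replicate 2 (adjusted p = 0.0527). The L-asparaginase gene SPBPB21E7.09, next in order, rose in cft1-L249Q (0.26), pfs2-E104A (0.37), pfs2-V180F (0.49) and ysh1-L74F (0.28). It fell in msi2-G252E (-0.27) and pla1-Y86L (-0.37). Its call in cft1-L249Q did not hold without WT replicate 1 or 3 or cft1-L249Q replicate 3 (adjusted p = 0.0640 to 0.144). The call in ysh1-L74F did not hold without WT replicate 1 or 3 or any 1 of the ysh1-L74F replicates (0.0693 to 0.213), and that in msi2-G252E without WT replicate 2 or msi2-G252E replicate 1 or 2 (0.0534 to 0.188). The uncharacterized SPBPB21E7.11 rose in msi2-G252E (0.76 ± 0.23) and pla1-Y86L (0.87 ± 0.22) and fell in pta1-T524M (-0.71 ± 0.27). The call in pta1-T524M did not hold without WT replicate 1 or 3 or pta1-T524M replicate 2 or 3 (adjusted p = 0.0624 to 0.211).

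In the innermost left cluster, SPBPB10D8.02c (an arylsulfatase, which releases sulfate from organic esters) and the pseudogene SPBPB10D8.03 beside it each rose in 4 mutants. SPBPB10D8.02c had 32.2, 34.8 and 33.0 CPM in cft1-L249Q, 41.1, 33.6 and 41.0 CPM in pta1-T524M and 17.8, 20.01 and 20.1 CPM in ysh1-L74F, against 5.50, 9.15 and 6.11 CPM in WT. The log2 fold changes were 2.27 ± 0.25, 2.48 ± 0.25 and 1.48 ± 0.26, with all libraries above WT. In pfs2-E104A it rose as well (1.05 ± 0.27, adjusted p = 0.00509), but replicate 1, at 7.603 CPM, lay among the WT values while the other replicates had 16.8 and 19.5 CPM.

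SPBPB10D8.03 rose by 2.45 ± 0.31 in pta1-T524M, 1.80 ± 0.33 in cft1-L249Q, 1.61 ± 0.33 in ysh1-L74F and 1.00 ± 0.38 in pfs2-E104A on the log2 scale. The call in pfs2-E104A did not hold without WT replicate 1 or 3 or pfs2-E104A replicate 2 or 3 (adjusted p = 0.0813 to 0.245). Its WT level was low, at 11, 22 and 17 reads. Their neighbour SPBPB10D8.01, a cysteine transporter gene, rose in pta1-T524M (0.93), cft1-L249Q (0.85) and ysh1-L74F (0.73). It fell in pfs2-E104A (-0.53), msi2-G252E (-0.58) and pla1-Y86L (-0.53), and the call in pfs2-E104A did not hold without WT replicate 3 (adjusted p = 0.0861) or pfs2-E104A replicate 1 (adjusted p = 0.128). In pfs2-E104A the transporter gene was thus called lower and the arylsulfatase gene, which overlaps it on the opposite strand, higher. The 2 changes did not peak in the same libraries. The transporter gene had 10.8 CPM in replicate 1, where the arylsulfatase gene lay among the WT values. It had 15.1 and 17.3 CPM in replicates 2 and 3, against 18.2, 19.7 and 23.3 CPM in WT.

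Of the 4 tandem transporter genes at the inner end of this cluster, SPBPB10D8.04c and SPBPB10D8.07c were tested. All 4 carry only the general product name transporter, and their sequences were not compared. If they are near-identical copies, reads may be split between them. SPBPB10D8.04c had 4.08, 5.22 and 4.73 CPM in pfs2-V180F and 4.73, 3.33 and 2.44 CPM in cft1-L249Q, against 1.33, 1.23 and 1.54 CPM in WT. All libraries of both mutants lay above WT, with log2 fold changes of 1.78 ± 0.19 and 1.36 ± 0.20. It also rose in msi2-G252E (0.81), pfs2-E104A (0.85) and ysh1-L74F (0.97), while in pta1-T524M it had 1.20 to 1.26 CPM and was not called. SPBPB10D8.07c rose in cft1-L249Q to 1.502, 1.51 and 1.65 CPM, against 0.4999, 0.159 and 0.937 CPM in WT (1.52 ± 0.49, adjusted p = 0.0151), a call lost without WT replicate 2 (1.09, adjusted p = 0.0811). Without WT replicate 3 the log2 fold change was 2.24.

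In the outermost left cluster 3 genes were tested. SPBC1348.12, a DNA-binding transcription factor, had 15.6, 16.6 and 16.8 CPM in pla1-Y86L, 15.9, 15.5 and 15.5 CPM in pta1-T524M and 7.41, 5.82 and 5.87 CPM in pfs2-E104A, against 9.62, 9.43 and 10.1 CPM in WT. These stood clear of WT, with log2 fold changes of 0.75 ± 0.09, 0.68 ± 0.09 and -0.60 ± 0.10.

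Nearer the end, the transmembrane protein gene ftm5 fell in msi2-G252E (-1.89 ± 0.53, adjusted p = 0.00371) and pla1-Y86L (-1.76 ± 0.52, adjusted p = 0.00485). It had 0.0372, 0.159 and 0.191 CPM in msi2-G252E and 0.183, 0.215 and 0.0363 CPM in pla1-Y86L, against 0.375, 0.517 and 0.562 CPM in WT, which were 9, 13 and 15 reads. The pseudogene SPBC1348.11 fell in pfs2-V180F to 0, 0.0348 and 0.1183 CPM (-2.21 ± 0.60) and rose in pla1-Y86L to 0.475, 0.903 and 0.799 CPM (1.43 ± 0.34), against 0.292, 0.279 and 0.225 CPM in WT. Its WT libraries held 7, 7 and 6 reads, so both folds rest on few reads, though neither overlapped WT, and without pfs2-V180F replicate 3 the fall was -3.42 on the log2 scale.

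**Figure D4:**
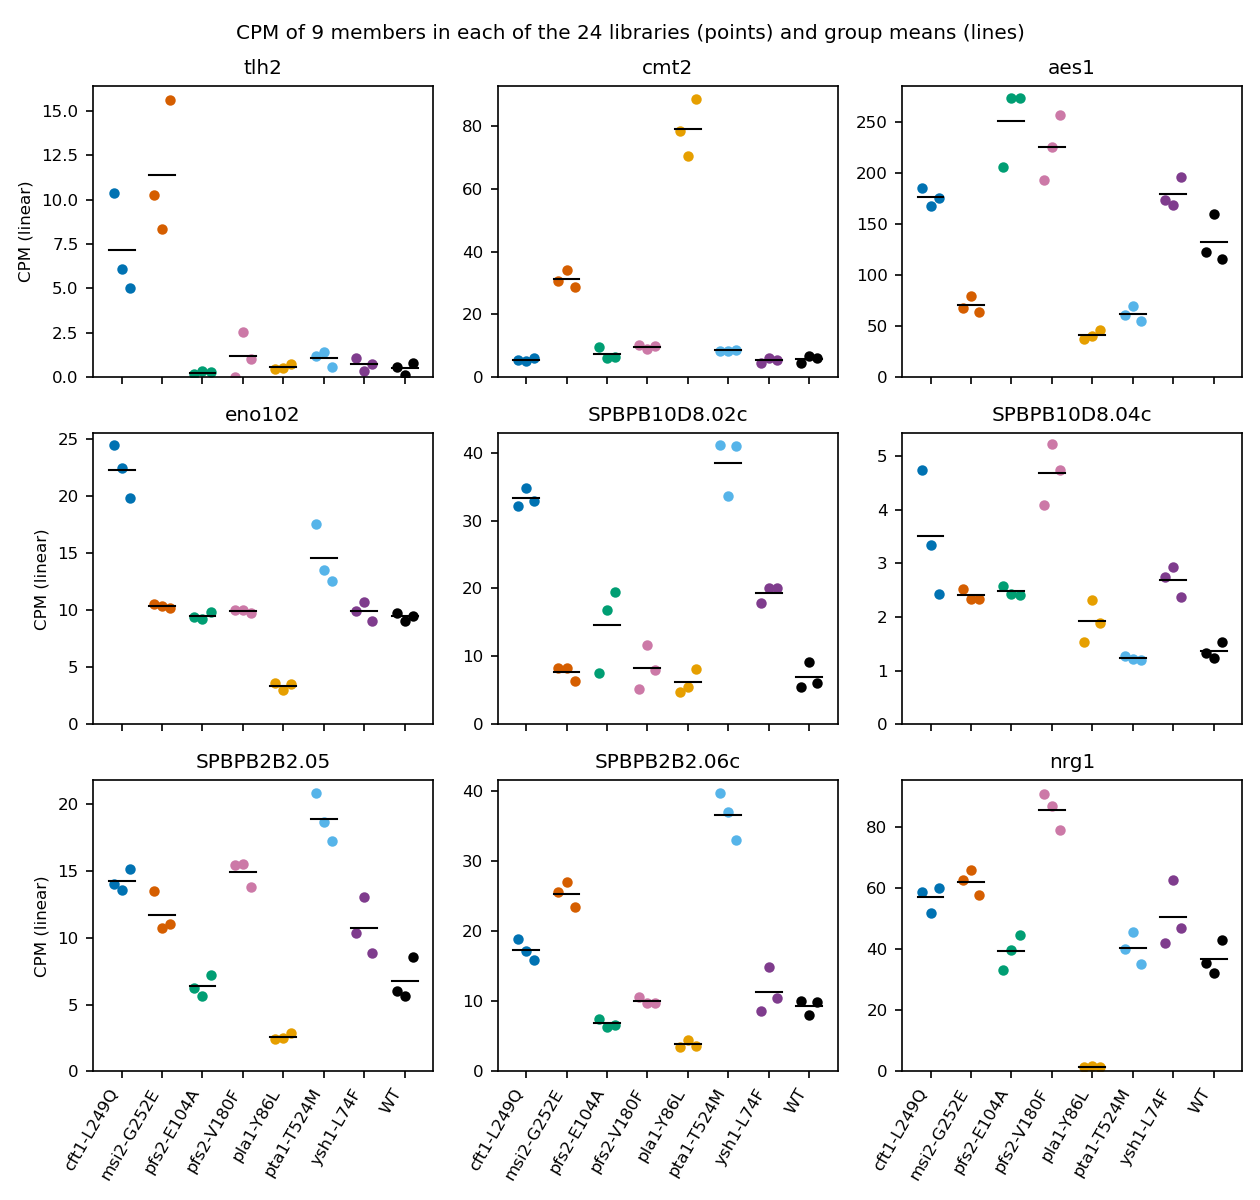
CPM of 9 of the tested genes in each of the 24 libraries (points) with the mean of each group (lines), on linear axes, mutants left of WT. The nrg1 points of pla1-Y86L lie at 1.34 to 1.68 CPM, and its cmt2 points at 70.6 to 88.7 CPM lie above all other libraries.

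The 2 alleles of pfs2, a WD-repeat subunit, carry the same marker and were compared with each other. In pfs2-V180F against pfs2-E104A 9 of the 28 genes were higher and 3 lower, where 19.6% and 18.6% of all genes were, and 3 were at least 2-fold higher (1.73% of all genes). SPBPB2B2.05 had 15.5, 15.5 and 13.8 CPM in pfs2-V180F, against 6.22, 5.66 and 7.18 CPM in pfs2-E104A (log2 fold change 1.23 ± 0.15). The permease gene nrg1 had 90.8, 86.8 and 78.8 CPM in pfs2-V180F, against 33.3, 39.6 and 44.8 CPM in pfs2-E104A (1.13 ± 0.13). In both genes the alleles did not overlap.

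For tlh2 the difference was 2.33 ± 0.89 (adjusted p = 0.0423), but the libraries overlapped, with 0, 2.54 and 1.03 CPM in pfs2-V180F, against 0.198, 0.318 and 0.262 CPM in pfs2-E104A. Without pfs2-V180F replicate 2 the call was lost (1.13, adjusted p = 0.435). It did not hold either without any 1 of the 3 pfs2-E104A replicates (adjusted p = 0.0709 to 0.129). SPBPB21E7.08 (-0.88), SPBPB10D8.02c (-0.75) and gal7 (-0.49) were lower in pfs2-V180F. The call of SPBPB10D8.02c did not hold without pfs2-E104A replicate 2 or 3, or pfs2-V180F replicate 1 or 3 (adjusted p = 0.0778 to 0.209). The remaining 6 genes called higher in pfs2-V180F differed by less than 2-fold.

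The spread between WT replicates was wider for these genes than for most. Over the 25 tested members with a mean of at least 10 WT reads, the median SD of log2(CPM + 0.5) over the 3 WT libraries was 0.19, against 0.06 over 6141 other genes with that many reads. In 18 of the 25 the SD was above the median of genes within 2-fold of their own level. Within the mutants the members were also wider than other genes, though less so than in WT. Their median SD ran from 0.106 in msi2-G252E to 0.160 in pfs2-E104A. That of other genes ran from 0.046 in msi2-G252E to 0.075 in cft1-L249Q. Pooled over all 8 groups, WT included, the median SD was 0.18 for the members and 0.07 for other genes. By the pooled SD 20 of the 25 were above genes of like level.

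Among these 25 the widest spread was that of SPBCPT2R1.04c (SD 0.68, with 26, 43 and 10 WT reads), SPBPB10D8.07c (0.56, with 12, 4 and 25 reads) and tlh2 (0.55). These genes had few reads. SPBPB21E7.08 had a wide spread at a high level, with 1926, 2941 and 1762 reads in WT and an SD of 0.42, against 0.05 for genes of like level. The fifth was SPBPB10D8.02c (0.36). WT replicate 2 was the highest for both SPBPB21E7.08 and aes1, and the fall of SPBPB21E7.08 in pla1-Y86L was the call of these genes that depended on it. The smallest SDs among the 25 were those of tgd1 (0.01), pan5 (0.05) and SPBC1348.12 (0.05).

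**Figure D5:**
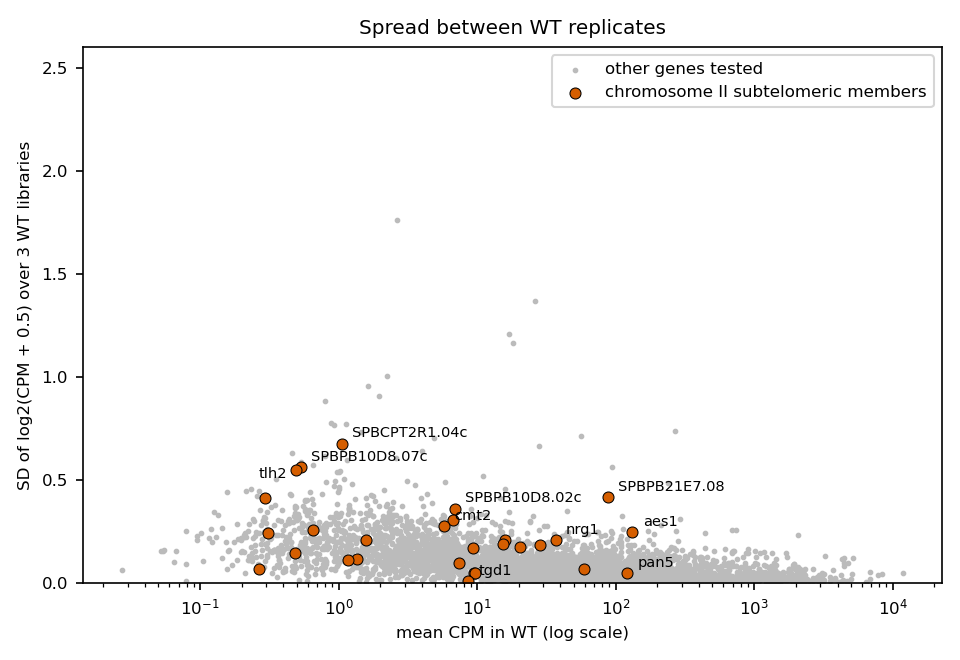
SD of log2(CPM + 0.5) over the 3 WT libraries against mean WT CPM on a log scale, for the 28 tested members (orange) and the other genes tested (grey). SPBPB21E7.08 (SD 0.42) and aes1 (0.25) stand above the grey cloud at their level, and tgd1 (0.01) and pan5 (0.05) lie within it.

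The mRNAs of 27 factors that silence subtelomeres were measured (methyltransferase complex, HP1 proteins, histone deacetylase and RNAi components). In cft1-L249Q 7 rose and 6 fell, so that 48.1% were called, against 43.3% of all genes. In msi2-G252E 8 rose and 4 fell (44.4%, against 58.8%), in pfs2-E104A 3 and 3 (22.2%, against 34.2%) and in pfs2-V180F 5 and 10 (55.6%, against 48.1%). In pla1-Y86L 7 rose and 10 fell (63.0%, against 64.6%), in pta1-T524M 5 and 2 (25.9%, against 38.4%) and in ysh1-L74F 3 and 2 (18.5%, against 14.4%). None of the 27 changed 2-fold in any mutant, and list medians lay between -0.05 and 0.04. Among the largest changes were hrr1, an RNA helicase of the RNAi machinery, in msi2-G252E (0.47 ± 0.04) and cft1-L249Q (0.41 ± 0.04), and clr2, of the deacetylase complex SHREC, in msi2-G252E (-0.43 ± 0.06) and pfs2-V180F (-0.39 ± 0.06). The HP1 gene swi6 fell in pla1-Y86L (-0.42 ± 0.08), and clr4 was called in no mutant.

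Of 15 telomere and anchoring factors, 1 rose in ysh1-L74F (6.67%, against 14.4% of all genes called in either direction) and 4 rose in pta1-T524M (26.7%, against 38.4%). In pfs2-E104A 4 rose (26.7%, against 34.2%) and in cft1-L249Q 5 did (33.3%, against 43.3%). In msi2-G252E 7 rose and 2 fell (60%, against 58.8%), in pfs2-V180F 6 and 3 (60%, against 48.1%) and in pla1-Y86L 4 and 4 (53.3%, against 64.6%). Those called in the first 4 of these mutants were each higher, and no change reached 2-fold. The shelterin gene poz1 rose in msi2-G252E (0.56 ± 0.05), and the inner nuclear membrane protein gene man1 rose there too (0.48 ± 0.04). The telomere-capping gene ten1 rose in pla1-Y86L (0.60 ± 0.14) and fell in pfs2-V180F (-0.51 ± 0.16).

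The annotation places 18 other genes among the members, and 14 of these were tested. In msi2-G252E 11 of the 14 fell and 2 rose, where 29.5% and 29.3% of all genes did, and the members had 4 and 9. Among the fallen were ght7, a hexose transporter gene (-1.95), and grt1 (-1.64). In pla1-Y86L 7 fell and 3 rose (median log2 fold change -0.35), beside 13 and 4 of the members (-0.37), where 32.4% and 32.2% of all genes did. In pfs2-V180F 8 fell and 1, nam3, rose (24% and 24.1% of all genes), and in cft1-L249Q 2 fell and nam3 rose (1.54; 21% and 22.3% of all genes). In pfs2-E104A 3 fell and 1 rose, where 16.1% and 18.1% of all genes did. In pta1-T524M 3 fell and 3 rose (19.8% and 18.7% of all genes), and in ysh1-L74F 1 and 2 (6.84% and 7.57%). The difference between these genes and the members was not tested.

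The subtelomeric genes of chromosome I, the gene group most like this one, were counted in the same way. Of 47 genes 27 were tested. In cft1-L249Q 5 rose and 8 fell (median log2 fold change 0.05), beside 17 and 0 of the chromosome II genes (0.40), where 22.3% and 21% of all genes did. In pla1-Y86L 2 rose and 11 fell (-0.38), beside 4 and 13 (-0.37), where 32.2% and 32.4% did. In pfs2-V180F 3 rose and 13 fell (-0.44), beside 11 and 2 (0.27), where 24.1% and 24% did. In msi2-G252E 5 rose and 8 fell (-0.17), beside 9 and 4 (0.08), where 29.3% and 29.5% did. In pfs2-E104A 1 rose and 6 fell (-0.14), beside 9 and 3 (0.17), where 18.1% and 16.1% did. In pta1-T524M 6 rose and 4 fell (-0.05), beside 13 and 2 (0.17), where 18.7% and 19.8% did. In ysh1-L74F 1 rose and 7 fell (-0.17), beside 10 and 0 (0.17), where 7.57% and 6.84% did. The difference between the 2 chromosomes was not tested, and tlh1 and tlh2 are counted on 1 side each.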

How the data were processed

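The polyA+ libraries were directional and read from both ends, per the labels' protocols. The values deposited are raw counts of reads for each gene. Per the submitters' processing notes, the tools were HISAT2 2.1.0, HTSeq 0.10.0, SAMtools and DESeq2, and the build was ASM294v2. Annotation release and strand setting are not given in the sources used here. RefSeq annotation of another assembly, ASM294v3, gave names, products and gene order only, and matched 56 of 56 members and 6836 of 6988 genes.

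Counts were tested with edgeR 4.0.16 (R 4.3.3, limma 3.58.1): filterByExpr (6287 genes kept), TMM scaling, 1 mean per group over 24 libraries (16 residual degrees of freedom) and glmQLFTest, with Benjamini-Hochberg adjustment. SEs are the log2 fold change over the root of F. P-values measure the spread between replicates as labelled. Alternatives were DESeq2 1.42.0, RLE scaling, no filter, a replicate block, 2-group fits and each replicate left out. The fit was tested on simulated data. The authors' own comparison tables were not used.

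The members, lists and naming rule were chosen with earlier results of these data known. Named are tlh2, cmt2, gal1, gal7 and gal10, called members at least 2-fold apart (up to 6 per direction and comparison), the widest and tightest in WT, the 5 with the most WT reads and the genes with no reads. Other members are named as the subject of the report, and nam3, SPNCRNA.1304, ght7 and grt1 were chosen after their values were seen.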

Additional observations from a re-analysis of the deposited data

Results flagged for a closer look

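Between the pfs2 alleles 3 members differed at least 2-fold by the direct test of pfs2-V180F against pfs2-E104A. The log2 fold change was 2.33 for tlh2, 1.23 for SPBPB2B2.05 and 1.13 for nrg1. For SPBPB2B2.05 and nrg1 the alleles' libraries did not overlap, and pfs2-E104A was not called against WT for either. For tlh2 the difference rested on few reads, 0, 73 and 26 in pfs2-V180F against 5, 6 and 5 in pfs2-E104A, and its adjusted p was 0.0423, or 0.0709 to 0.435 when pfs2-V180F replicate 2 or any 1 of the pfs2-E104A replicates was left out.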

How the results depend on the processing

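Of 97 calls of a member in a mutant against WT, 18 were lost under at least 1 alternative and 0 changed direction. By setting, over those and the calls between the pfs2 alleles, 0 were lost with DESeq2, RLE scaling or no filter, 9 when only the groups compared were fitted, and 7 without WT replicate 2. DESeq2 added cmt2 in pfs2-E104A (adjusted p = 0.0453) and between the pfs2 alleles (0.0337). The main fit did not pair samples by replicate number. Deviations of libraries with the same number correlated weakly (-0.10 to 0.21). Even so, all 6 libraries correlated best with their own number in cft1-L249Q and in pfs2-E104A against WT. In the other comparisons 0 to 3 of the 6 did. Whether replicates of 1 number were handled together is not known. The replicate block lost 1 call, SPBPB21E7.11 in pta1-T524M (-0.71, adjusted p = 0.0514), so that the number falling there was 1, not 2, as in the fit of 2 groups. Without the filter 6 members rose in pla1-Y86L, not 4. With replicates left out in turn, the number rising was 6 to 11 in pfs2-E104A and 6 to 10 in ysh1-L74F, and the number falling was 1 to 3 in pfs2-E104A, 1 to 3 in pfs2-V180F and 1 to 2 in pta1-T524M. On TMM-scaled library sizes the share of all members was 0.0611% in msi2-G252E and 0.0590% in WT. That of the left arm was 0.0252% in msi2-G252E and 0.0306% in WT. That of the right arm was 0.0359% in msi2-G252E, 0.0329% in pfs2-E104A and 0.0283% in WT. The median WT SD was 0.16 with a pseudocount of 2. Log2 fold changes that changed sign, all uncalled, did so when 1 replicate was left out: cmt2 in cft1-L249Q (-0.19 to 0.067) and ysh1-L74F (-0.24 to 0.018), gal7 in msi2-G252E (-0.15 to 0.037), pla1-Y86L (-0.079 to 0.099) and ysh1-L74F (-0.19 to 0.036), tlh2 in pla1-Y86L (-0.26 to 0.73), and gal10 between the pfs2 alleles (-0.14 to 0.083). The causes were not tested. Depth limits the 28 genes not tested and members with few WT reads, such as tlh2. The unknown handling of reads shared between copies may limit them too.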
